A study of Mus musculus with 9 samples.

Results

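The livers of insulin-treated STAM mice (STAM-INS) were compared with those of normal mice (Normal), to see which differences of the diabetic, fatty liver were also there under insulin and which transcripts differed from normal liver only under insulin. This comparison takes 6 of the 9 arrays of the series, 3 STAM-INS and 3 Normal, chosen by their sample labels. The other 3, from untreated STAM mice (STAM-NON), entered the fit and serve as the reference for the untreated disease. All 9 male mice were 20 weeks of age, with 1 array of total liver RNA for each mouse. STAM-INS mice had received streptozotocin as newborns, then a high-fat diet, and then insulin glargine under the skin up to the end of the study, STAM-NON mice the streptozotocin and the diet without insulin, and Normal mice chow alone. STAM-INS therefore differed from Normal by streptozotocin, diet and insulin together. Slide and group coincided here. All Normal arrays lay on one slide and all STAM arrays on another, scanned in another run, so that group and slide cannot be told apart in any difference from Normal. STAM-INS and STAM-NON shared a slide but not all of its rows. All STAM-NON arrays and STAM-INS replicate 1 lay in row 1, and STAM-INS replicates 2 and 3 in row 2. The sources used here give neither the time of day at which livers were taken nor whether the pieces held tumour.

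Streptozotocin destroys the insulin-secreting β cells, and a diabetic mouse on a fatty diet accumulates fat in the liver, then inflammation, scar tissue and tumours. In hepatocytes insulin switches on fatty acid and cholesterol synthesis through SREBP factors and switches off glucose output. The liver also carries a circadian clock. Its activators CLOCK and ARNTL (also known as BMAL1) bind E-boxes and drive their own repressors, the Per, Cry, Nr1d and Ciart genes, and output factors such as DBP and TEF, which act through D-boxes on many metabolic genes.

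Promoter sequences are shown for genes picked because their promoter held a match to the motif looked for. They are 3 clock genes that differed from Normal with insulin only and 2 interferon genes higher in both STAM groups, with a cholesterol gene beside them. The promoters of the clock genes Dbp and Usp2, which held no match, are not shown. All sequences are from RefSeq, build GRCm38.p6, 140 bases each on the strand of the gene, with motif matches on either strand in capitals. Ciart (chr3:95882236-95882375, minus strand) and Tef (chr15:81802479-81802618, plus strand) hold the E-box CACGTG. Per3 (chr4:151044773-151044912, minus strand) holds the D-box TTATGTAA. Oas1a (chr5:120907496-120907635, minus strand) and Ifi44 (chr3:151749881-151750020, minus strand) hold the core of the interferon-stimulated response element, GAAANNGAA, and in Oas1a 2 matches overlap. Hmgcs1 (chr13:119690149-119690288, plus strand) holds the sterol element core TCACNCCAC.
Ciart: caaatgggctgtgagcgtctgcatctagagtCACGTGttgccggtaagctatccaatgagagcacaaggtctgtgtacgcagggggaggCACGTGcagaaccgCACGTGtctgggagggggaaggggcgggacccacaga
Tef: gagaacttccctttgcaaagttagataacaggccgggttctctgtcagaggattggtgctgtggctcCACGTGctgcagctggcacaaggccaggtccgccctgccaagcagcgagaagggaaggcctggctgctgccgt
Per3: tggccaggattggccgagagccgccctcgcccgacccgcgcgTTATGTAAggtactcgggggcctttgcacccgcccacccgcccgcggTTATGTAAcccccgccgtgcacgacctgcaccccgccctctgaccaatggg
Oas1a: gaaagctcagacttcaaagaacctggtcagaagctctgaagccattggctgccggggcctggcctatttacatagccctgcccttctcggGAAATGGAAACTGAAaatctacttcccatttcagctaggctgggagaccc
Ifi44: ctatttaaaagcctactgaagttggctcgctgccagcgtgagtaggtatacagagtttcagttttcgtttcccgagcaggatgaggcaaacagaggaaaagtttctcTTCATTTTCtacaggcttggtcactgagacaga
Hmgcs1: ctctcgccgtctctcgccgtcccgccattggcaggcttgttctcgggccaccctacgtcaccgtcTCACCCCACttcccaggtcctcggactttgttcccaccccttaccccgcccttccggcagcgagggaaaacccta

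Values are centred log2 signals, that is, log2 of the processed spot signal after subtraction of its 75th percentile on that array, and differences are on the log2 scale. A transcript passed, or was called, where limma gave a Benjamini-Hochberg adjusted p under 0.05 over all 26278 tested probes. Between 47.8% and 65.0% of spots were well above background on STAM-INS arrays and between 46.2% and 51.1% on Normal arrays, the highest on STAM-INS replicate 1. All 6 hepatocyte markers were well above background on every array of both groups, and 1 of them, the urea cycle enzyme Cps1, was lower in STAM-INS (-0.67, limma adjusted p 0.0309), a call lost under 10 of 21 alternatives, among them leaving out STAM-INS replicate 2 or 3 or any one Normal array. The 4 Kupffer cell markers had a summed log2 level of 5.76 to 7.40 in STAM-INS and 4.93 to 5.86 in Normal, and 1 of them, the lectin Clec4f, passed (0.97, limma adjusted p 0.0454), a call lost under 11 of 21 alternatives, among them leaving out STAM-NON replicate 1 or 3, STAM-INS replicate 2 or 3 or any one Normal array. The 3 erythroid markers summed to 6.78, 9.79 and 8.90 on the STAM-INS arrays and to 7.04 to 7.21 in Normal, with 0 of 3 past the threshold. None of the 4 adipocyte markers and none of the 3 muscle markers passed the filter for testing. Markers of other cell types that passed were Sox9 of bile duct cells (1.57, limma adjusted p 0.00338), Cela1 of pancreatic acinar cells (1.94, limma adjusted p 0.0425) and Kap of kidney. Kap was above background on 3 of 3 STAM-INS and 0 of 3 Normal arrays. The bile duct markers Krt19 (0.48, limma adjusted p 0.517) and Krt7 (1.33, limma adjusted p 0.0567) did not pass, nor did the acinar marker Amy2a5 (-0.37, limma adjusted p 0.363). Epcam of bile duct cells, the acinar markers Cpa1, Prss2 and Pnlip and the kidney markers Umod and Slc12a1 were below the filter for testing. Cela1 did not pass without any one STAM-INS or Normal array. The part of these cell types in the results was not tested. In pieces of whole liver, fewer cells of a type and less RNA per cell cannot be told apart.

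STAM-INS liver differed from Normal liver at 3647 probes (13.9%), of which 1355 were higher and 2292 lower. Taken at 1 probe per gene, 823 of 13386 genes were higher (6.15%) and 1002 lower (7.49%), and over 2-fold there were 538 higher and 296 lower. The median difference over all genes was -0.07. The split of directions moved with the scaling. There were 1679 higher and 1298 lower probes when that percentile was computed from the probes seen on every array, and 1492 higher against 714 lower with arrays centred on E1A spike-ins. Single arrays moved the count as well. It was 2157, 1172 and 1945 without STAM-INS replicate 1, 2 and 3, and 1428, 1481 and 1174 without Normal replicate 1, 2 and 3.

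**Figure D1:**
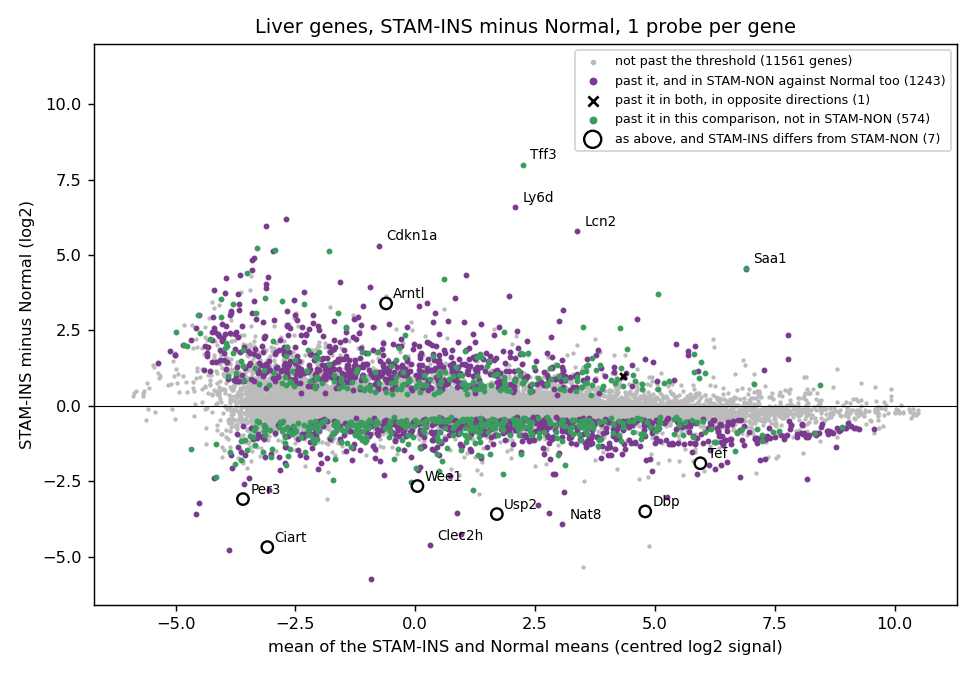
Difference between STAM-INS and Normal liver (log2, vertical) against the mean centred log2 signal of both groups (horizontal) for 13386 genes, each point 1 gene. Purple points passed against Normal in both STAM groups in the same direction (1243), green points in STAM-INS only, rings mark 7 genes called only here that also differed from STAM-NON, and the cross marks Clpx, which moved in opposite directions.

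Most called changes of insulin-treated liver were also called without insulin. Of the 1825 genes called in STAM-INS, 1243 (68.1%) were called in the same direction in STAM-NON, 597 higher and 646 lower, and these made up 55.3% of the 2249 genes called in STAM-NON. Both comparisons share the Normal arrays, so this overlap is a description. The background in STAM-NON was 7.87% of genes higher and 8.93% lower. Over these 1243 genes the median size of the difference from Normal came to 1.02 for STAM-INS and 0.96 for STAM-NON, and it was larger in STAM-NON for 581 of them. In 0 of the 1243 did STAM-INS differ from STAM-NON past the threshold. Changes of over 2-fold in both groups numbered 394 higher and 118 lower. A further 1005 genes were called in STAM-NON only, and in 3 of these did the STAM groups themselves differ.

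Ranked by the smaller of a gene's differences in the STAM groups, with clone-like symbols left out, 8 shared rises and 8 shared falls were taken. Where a group was not above background the size entering this ranking is not a measured one, so that no order is drawn from it. The rises were in Ly6d, Gldn, Cdkn1a, Lcn2, Gipc2, Bmp8b, Sybu and Tceal5. Ly6d, a membrane-anchored antigen of the Ly6 family, had signals of 4.95, 6.61 and 4.56 in STAM-INS and of -1.74, -0.98 and -0.92 in Normal, a difference of 6.59 (SE 0.58, limma adjusted p 0.00175). In STAM-NON it read 5.72, 5.06 and 4.09, so that the STAM groups overlapped each other and neither overlapped Normal. Cdkn1a, which encodes the cyclin-dependent kinase inhibitor p21, had signals of 1.06, 2.57 and 2.09 in STAM-INS and -3.33, -3.33 and -3.54 in Normal (difference 5.31, SE 0.35, limma adjusted p 0.00106), beside a difference of 4.99 in STAM-NON. Its other tested probe passed too. Lcn2, a secreted acute phase protein that binds bacterial siderophores, read 5.42, 8.31 and 5.07 in STAM-INS against 0.29, 1.06 and 0.09 in Normal, a difference of 5.79 (SE 0.91, limma adjusted p 0.00773). STAM-INS replicate 2 was the highest of all 9 arrays for Ly6d, Cdkn1a and Lcn2.

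No Normal array had several of these transcripts well above background, so only a lower bound of the rise can be given, set against the lowest detected signal. Here and below, such a bound holds for the main processing only. Over the alternatives the log2 difference was as low as 2.45 for Gldn, 1.43 for Bmp8b and 1.19 for Sybu. Gldn, which encodes gliomedin, an organiser of the nodes of Ranvier in nerve, was at least 19.8-fold higher in STAM-INS (limma adjusted p 0.00253), and its STAM-INS signals of 0.55, 0.15 and 0.52 lay close together. Bmp8b, a ligand of the TGFβ family, was at least 7.78-fold higher (limma adjusted p 0.00513), and Sybu, a linker of membrane cargo to kinesin, at least 5.32-fold higher (limma adjusted p 0.00201). Gipc2, a PDZ domain protein, was at least 6.75-fold higher and Tceal5 at least 7.86-fold. These 2 passed less firmly. Gipc2 lost the threshold under 5 of 20 alternatives, among them leaving out STAM-INS replicate 2, Normal replicate 1 or Normal replicate 3, and Tceal5 under 9 of 20, including each of those and STAM-INS replicate 1 or Normal replicate 2.

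The shared falls were in Clec2h, Olfr173, Cyp26a1, Nat8, Tox4, Trhde, Amer2 and Cyp3a16. Nat8, an N-acetyltransferase that acts on cysteine conjugates, had signals of 1.32, 0.49 and 1.49 in STAM-INS and of 4.81, 5.32 and 4.94 in Normal, and fell by 3.92 (SE 0.31, limma adjusted p 0.00173), beside a difference of -3.33 in STAM-NON. Cyp26a1, which degrades retinoic acid, read 0.10, -1.38 and -1.42 in STAM-INS and 2.27, 3.63 and 2.03 in Normal, with a difference of -3.55 (SE 0.52, limma adjusted p 0.00613) and one of -4.49 in STAM-NON. Neither gene's STAM-INS arrays overlapped Normal, as held for all 1825 genes called in STAM-INS. Cyp3a16, a cytochrome P450 of the CYP3A family, fell by 3.04 (SE 0.40, limma adjusted p 0.00435). Tox4, an HMG-box protein, fell by 4.27 at the probe used here, but only 1 of its 2 tested probes passed. Olfr173, an olfactory receptor gene, was at least 2.68-fold lower, and Trhde, a membrane peptidase that inactivates thyrotropin-releasing hormone, at least 2.47-fold lower, both being undetected on every STAM array. Clec2h, a C-type lectin-like gene, read -0.12, -4.26 and -1.61 in STAM-INS against 2.22, 2.65 and 3.01 in Normal (-4.62, SE 1.05, limma adjusted p 0.027), and it lost the threshold without STAM-INS replicate 2 or 3 or any one Normal replicate. Amer2, an APC-binding membrane protein, differed by -2.79 with 1 of 3 STAM-INS arrays well above background, and lost the threshold under 8 of 20 alternatives, leaving out any one STAM-INS array or Normal replicate 2 among them.

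**Figure D2:**
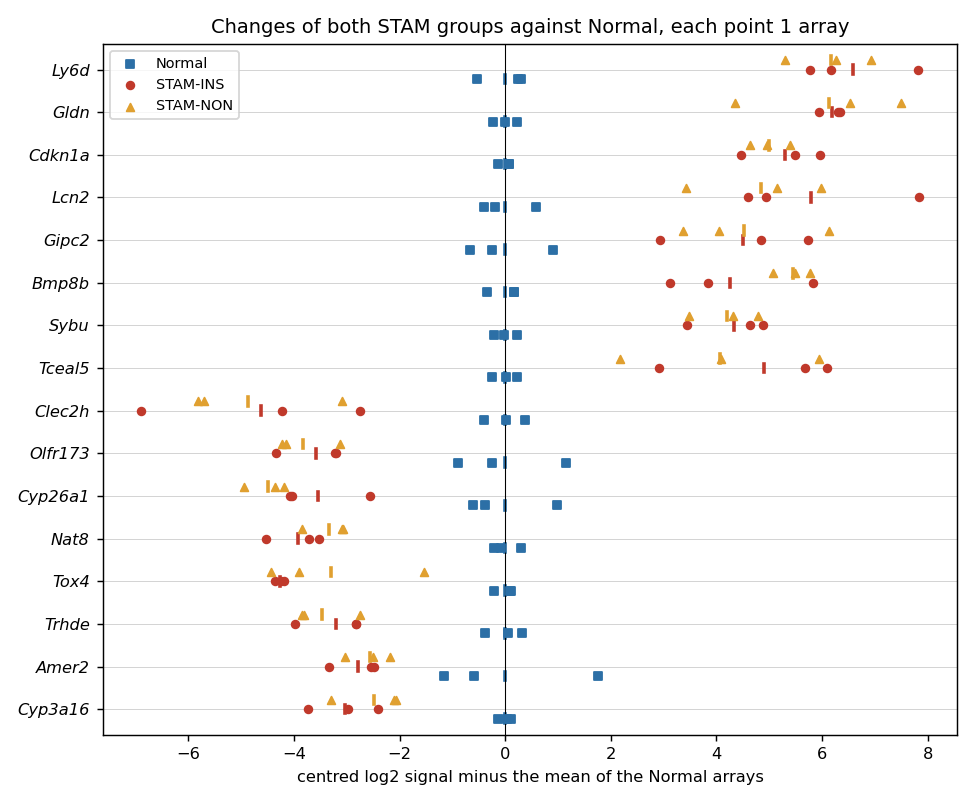
Centred log2 signal minus the mean of the Normal arrays (horizontal) for the 8 rises and 8 falls described as shared by both STAM groups, each point 1 array and each short bar a group mean. Red STAM-INS points and amber STAM-NON points intermingle on one side of the blue Normal points, for Ly6d at differences of 6.59 and 6.17 from Normal.

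Groups of genes were described by how many of their tested members passed, read against the 6.15% of all genes that were higher and the 7.49% that were lower in STAM-INS. The lists were chosen with earlier results of these data known, so that a share above these is a description and no independent support. Interferon-response genes had the largest share of higher calls of the lists, with 18 of 28 tested members higher and 0 lower (median difference 1.27), and 17 of these were higher in STAM-NON as well. Oas1a, which makes the second messenger that activates RNase L, read 4.68, 4.58 and 3.94 in STAM-INS against 1.42, 1.52 and 1.80 in Normal (2.82, SE 0.23, limma adjusted p 0.00173). Ifi44, a further interferon-induced gene, differed by 2.72 (SE 0.32, limma adjusted p 0.00322). Oas3, whose product is of the same enzyme family, was at least 1.99-fold higher. The number of members past the threshold was 11 and 10 without STAM-INS replicate 1 and 2, and 10 and 8 without Normal replicate 1 and 3. The core motif capitalised above occurred in 8 of the 13 interferon genes with a RefSeq promoter and in 8 of their 15 promoters (53.3%), against 8.56% of all 32851 promoters, which run from 250 bases before to 50 bases after a start site.

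Of 29 tested inhibitors of the cell cycle and other p53 targets, 9 were higher and 0 lower in STAM-INS (median 0.61), and all 9 were among the 10 higher in STAM-NON. Beside Cdkn1a these included Cdkn2a, which encodes p16 and ARF and was at least 6.82-fold higher (limma adjusted p 0.00173), and Phlda3, an inhibitor of AKT, at 2.78 (SE 0.27, limma adjusted p 0.00201). Tnfrsf10b, a death receptor, differed by 2.56 (SE 0.21, limma adjusted p 0.00173), with 1 of 3 Normal arrays well above background. Genes of cell division had the highest list median, 1.74, but only 6 of 25 passed, and their spread was wide. The list median on the 3 STAM-INS arrays was 1.3, 2.89 and 0.88 above the Normal mean. Without any one Normal array 0 of them passed, and without STAM-INS replicate 1 or 2 only 1 did. Plk1, the mitotic kinase, read -0.51, 1.28 and -1.17 in STAM-INS against -3.08, -2.79 and -2.42 in Normal, with a limma adjusted p of 0.0359 that was lost in these same cases.

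Fetal and tumour markers of liver were higher in 9 of 19 tested genes in both STAM groups, 7 of them shared, with 0 lower (median 1.3). Without any one STAM-INS or Normal array 4 to 7 passed, 4 being without STAM-INS replicate 2 or Normal replicate 1 or 3. Ly6d, described above, is of this list. Afp, the fetal albumin-like serum protein, had signals of 3.45, 1.24 and 0.53 in STAM-INS and of -2.10, -0.87 and -1.72 in Normal (3.30, SE 0.71, limma adjusted p 0.0222), beside 3.10 in STAM-NON. Akr1c18, a steroid-metabolising aldo-keto reductase, differed by 2.68 (limma adjusted p 0.00549) and by 3.0 in STAM-NON. Tff3, a secreted trefoil peptide of mucous epithelia, gave the largest rise of STAM-INS over Normal among genes called here. Its signals were 6.64, 6.66 and 5.41 in STAM-INS and -1.22, -1.84 and -2.20 in Normal (7.99, SE 1.64, limma adjusted p 0.0196), while the STAM-NON arrays spread from -0.70 over 2.60 to 7.31 and did not pass (limma adjusted p 0.0766). The difference between the STAM groups did not pass the threshold for it. Tff3 and Afp lost the threshold without STAM-INS replicate 2 or Normal replicate 1 or 3, and Tff3 also without STAM-INS replicate 1 or Normal replicate 2.

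Drug-metabolising cytochromes P450 of families 1 to 3, listed together with the retinoic acid hydroxylases of the CYP26 family, had the largest share of lower calls of the lists. Of 28 tested members 14 were lower and 0 higher (median -1.05), and all 14 were lower in STAM-NON too, where 18 passed. Cyp3a11, the main CYP3A enzyme of mouse liver, read 6.18, 7.14 and 7.53 in STAM-INS and 9.50, 9.25 and 9.43 in Normal (-2.44, SE 0.36, limma adjusted p 0.00633). Cyp1a2, which oxidises aromatic amines and caffeine, differed by -2.26 (SE 0.46, limma adjusted p 0.0193), and Cyp2c37 by -1.96. Probes of such near-identical paralogues may bind each other's transcripts, and their values are uncertain to that extent. Leaving out STAM-INS replicate 2 or Normal replicate 3 left 6 of 28 lower, and leaving out Normal replicate 1 or 2 left 8. Cyp1a2 lost the threshold in these 4 cases, and Cyp2c37 without STAM-INS replicate 2. Of 28 hepatocyte identity genes 8 were lower (median -0.37), among them Nr1i3, the xenobiotic receptor CAR, at -1.06 (SE 0.19, limma adjusted p 0.0119). Of 42 genes of the urea cycle and amino acid breakdown 9 were lower and 0 higher. Of 34 respiratory chain genes 1 was lower, a share under the 7.49% of all genes. Of the 34, 0 had a difference above 0 (median -0.39), where the median over all genes was -0.07. Over the alternatives that list median ranged from -0.56 to -0.17 and the number lower from 0 to 16. With spike-in centring the counts for hepatocyte identity became 1 of 28 lower and, for the amino acid genes, 0 lower with 1 higher, and with any one STAM-INS or Normal array left out they ranged from 1 to 4 and from 0 to 4 lower.

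Of 28 cytokine, chemokine and related genes, 10 were higher and 1 lower (median 1.1), against 14 higher in STAM-NON, with 9 in both. Ccl7, a chemokine for monocytes, was at least 3.11-fold higher (limma adjusted p 0.00429). Ccl2, the monocyte chemoattractant MCP-1, read 0.73, -0.15 and -0.42 in STAM-INS against -2.20, -1.52 and -1.71 in Normal (1.87, SE 0.43, limma adjusted p 0.0281). It lost the threshold without STAM-INS replicate 1 or 2 or any one Normal array, and the list then had 3 to 5 members higher and 0 to 1 lower. The granzymes Gzma and Gzmb of cytotoxic lymphocytes differed by 2.09 (limma adjusted p 0.00893) and 2.66 (limma adjusted p 0.00362). The Gzmb probe was not well above background on all 9 arrays, and its difference ranged from 0.59 to 2.84 over the alternatives. Of 14 tested genes of T and NK cells 3 were higher and 0 lower (median 0.25). The lymphocyte markers Cd3e (0.08) and Nkg7 (-0.21) did not pass. Prtn3, a neutrophil serine protease, differed by 5.14 (SE 1.29, limma adjusted p 0.0362) with 1 of 3 Normal arrays well above background, and did not pass without any one STAM-INS or Normal array. Dntt, the nucleotide-adding polymerase of lymphocyte precursors, read 3.64, 3.39 and 2.67 in STAM-INS against -1.80, -0.24 and -1.27 in Normal (4.34, SE 0.43, limma adjusted p 0.00205), beside 3.22 in STAM-NON. Gpx2, a glutathione peroxidase of epithelia, was higher by 3.33 (SE 0.31, limma adjusted p 0.00185). Fgf21, a hormone that liver releases in fasting and stress, read 1.64, 1.27 and 2.91 in STAM-INS against -0.91, -2.14 and -1.32 in Normal (3.40, SE 0.51, limma adjusted p 0.00676), beside 3.07 in STAM-NON.

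**Figure D3:**
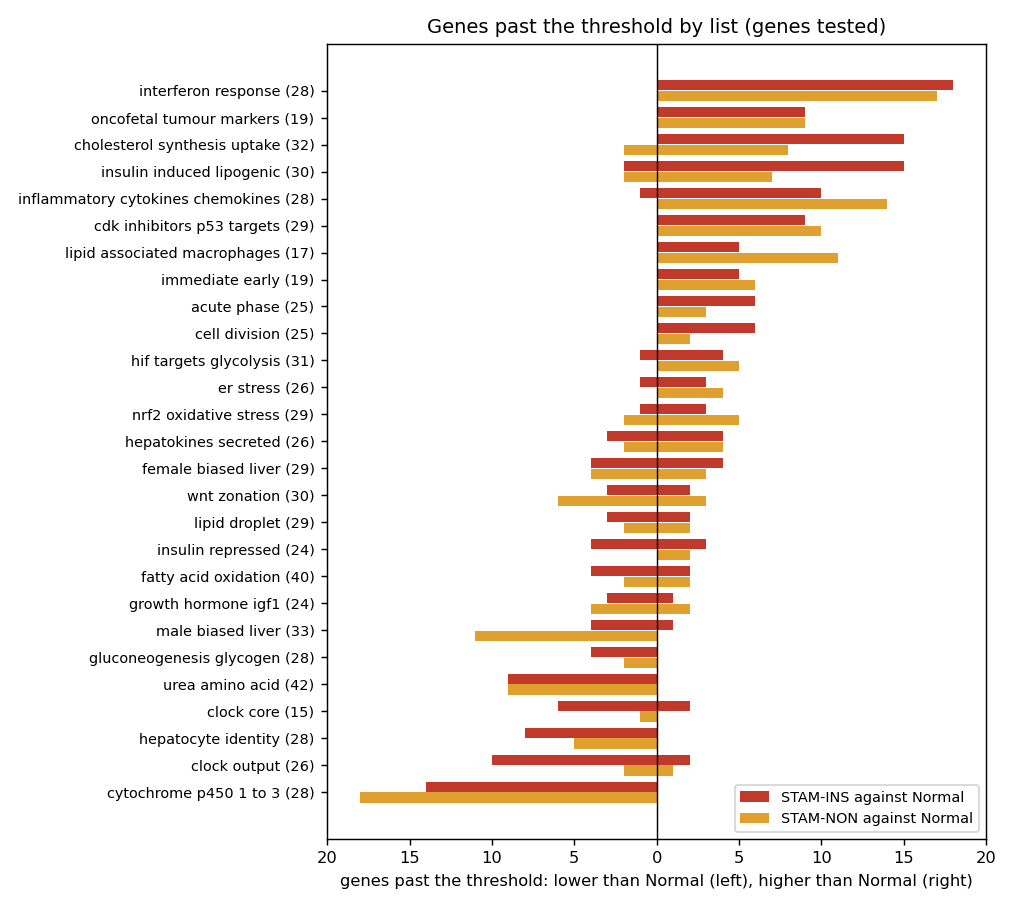
Number of genes past the threshold in each list with 4 or more such genes in STAM-INS, higher than Normal to the right and lower to the left, with the number tested in brackets. Red bars are STAM-INS and amber bars STAM-NON, both against the same Normal arrays. Interferon genes (18 and 17 higher) and cytochromes P450 (14 and 18 lower) look alike in both, while red bars are longer for clock, cholesterol and lipogenic genes.

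Genes called in STAM-INS only numbered 581, 225 higher and 356 lower. A call in one comparison and not in the other shows no difference between them. Of the 581, 558 moved in the same direction in STAM-NON, and 349 had an unadjusted p under 0.05 there. The test of the difference itself, STAM-INS minus STAM-NON within a single slide, passed for 24 of 26278 probes (0.0913%), with 2308 at an unadjusted p under 0.05. It passed for 10 probes that differed from Normal with insulin only. They belonged to Arntl, Ciart, Dbp (2 probes), Per3, Tef, Usp2 and Wee1, with 2 unnamed, and all 7 named genes are components or outputs of the circadian clock. The count was 7 without STAM-NON replicate 1, 4 without STAM-NON replicate 2 and 30 without STAM-NON replicate 3. It was 5 without STAM-INS replicate 3, 14 without STAM-INS replicate 1, 7 without STAM-INS replicate 2 and 7 to 9 without any one Normal array.

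Arntl, the activator of the clock, had signals of 1.24, 1.20 and 0.83 in STAM-INS and of -1.97, -2.08 and -2.86 in Normal, and rose by 3.40 (SE 0.27, limma adjusted p 0.00173). In STAM-NON it read -1.90, -1.69 and -1.21, which did not pass against Normal (0.71, limma adjusted p 0.101) and lay 2.69 below STAM-INS (limma adjusted p 0.0162). Ciart, a repressor of CLOCK and ARNTL also known as Chrono, moved the other way. On the 3 STAM-INS arrays its spot did not stand out from background, which puts it at least 11-fold below Normal (limma adjusted p 0.000575) in the main processing. Over the alternatives its difference was as small as -1.74. Its Normal signals were -1.11, -0.79 and -0.33 and its STAM-NON signals -1.42, -1.45 and -1.45. Per3, of the period repressors, read -4.69, -5.99 and -4.74 in STAM-INS, with 1 of 3 arrays well above background, and -2.25, -1.58 and -2.31 in Normal (-3.09, SE 0.35, limma adjusted p 0.0028). STAM-NON lay within the Normal range, at -1.91, -1.90 and -1.95. None of these 3 genes had a STAM-INS array within the range of either other group. This is no further support, since the genes were picked by these calls. STAM-INS and Normal did not overlap for any of the 1825 called genes, nor for 6017 of all 13386 genes.

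The other 4 of the 7 genes are output genes of the clock, and all were lower in STAM-INS. Dbp, a transcription factor of the PAR-bZIP family, had signals of 3.42, 2.30 and 3.42 in STAM-INS and of 6.36, 6.58 and 6.72 in Normal, and fell by 3.50 (SE 0.31, limma adjusted p 0.00176). STAM-NON lay at 5.98, 6.12 and 5.51, and its second probe gave -3.58 for STAM-INS. Tef, of the same family, fell by 1.91 (SE 0.16, limma adjusted p 0.00173) from 6.88, 6.87 and 6.96 in Normal to 4.95, 4.74 and 5.29. Usp2, a deubiquitinase, read -0.96, 0.02 and 0.66 in STAM-INS against 3.41, 3.40 and 3.69 in Normal (-3.59, SE 0.37, limma adjusted p 0.00236). Wee1, the kinase that holds back mitotic entry and a classical clock-driven gene, read -1.44, -1.26 and -1.16 against 1.61, 1.17 and 1.35 (-2.66, SE 0.16, limma adjusted p 0.000575), with STAM-NON at 0.94, 1.09 and 0.70. For these 4 genes too all STAM-INS arrays lay below all Normal and STAM-NON arrays, which again adds no support to the calls. Against Normal, all 7 genes kept the threshold and the direction under every alternative run. The full call, which also needs the difference from STAM-NON, was less stable. Of its 10 probes, 3 kept it with slide row as a block, where the difference from STAM-NON rests on STAM-INS replicate 1 alone. It was kept by 2 with the replicate block and by 6 with normexp background correction. Between 3 and 7 kept it when 1 array was left out, 3 being without STAM-NON replicate 2 and 4 without STAM-INS replicate 3.

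The wider clock lists held calls in both directions. Of 15 tested core clock genes 2 were higher and 6 lower in STAM-INS (median -0.63), against 0 higher and 1 lower in STAM-NON. Clock, the partner of ARNTL, was higher by 0.70 (limma adjusted p 0.0248), a call lost without any one STAM-INS or Normal array. Per2, a period repressor, differed by -1.20 (limma adjusted p 0.0139, lost without Normal replicate 1), Cry2, a cryptochrome repressor, by -0.93 (limma adjusted p 0.00622), and Nr1d2, the nuclear receptor REV-ERBβ, by -1.63 (limma adjusted p 0.0028). Per1 and Nr1d1 did not pass. Their differences were -1.30 and -0.99, with limma adjusted p of 0.0867 and 0.183. Of 26 tested clock output genes 2 were higher and 10 lower (median -0.75), against 1 and 2 in STAM-NON. Nfil3, a repressor that competes at D-boxes, read 4.19, 4.42 and 4.04 in STAM-INS against 3.25, 2.53 and 2.89 in Normal (1.33, limma adjusted p 0.00579), with STAM-NON at 2.76, 2.95 and 2.72. Por, the reductase that feeds electrons to microsomal P450 enzymes, differed by -1.97 (limma adjusted p 0.00185) and by -0.66 in STAM-NON, where it also passed. Upp2, a uridine phosphorylase, differed by -3.56 (limma adjusted p 0.00378) and by -1.94. Ttc39a, a tetratricopeptide repeat gene, was, with Nfil3, the other higher member. It read -0.28, 0.84 and -0.10 in STAM-INS against -2.61, -2.22 and -3.32 in Normal (2.87, limma adjusted p 0.00361) and was higher by 3.32 in STAM-NON.

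**Figure D4:**
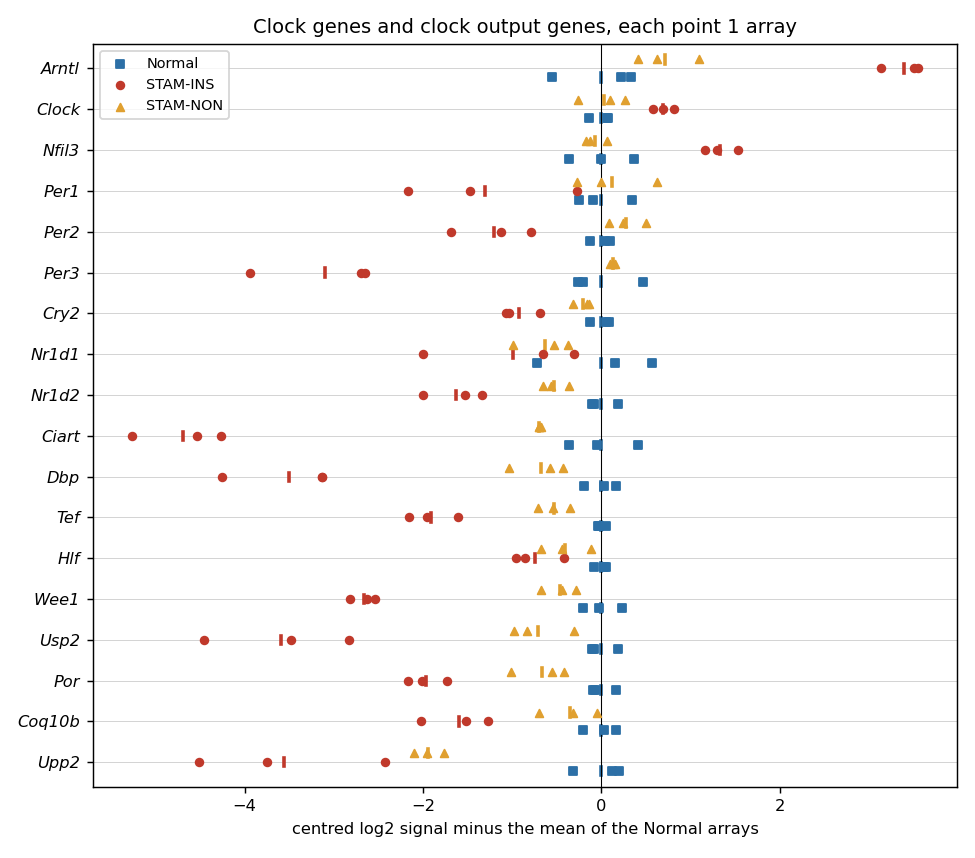
Centred log2 signal minus the mean of the Normal arrays (horizontal) for 18 clock and clock output genes, each point 1 array and each short bar a group mean. Red STAM-INS points lie to the right for Arntl (3.40), Clock and Nfil3 and to the left for the repressor and output genes, down to Ciart, while amber STAM-NON points mostly lie near the blue Normal points.

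Of the 7 genes, 6 had a RefSeq promoter, 8 promoters in all, and Wee1 had no entry. The E-box CACGTG occurred in 3 of the 8 promoters (37.5%), against 7.15% of all promoters, with 3 matches in Ciart and 1 in each of the 2 Tef promoters. By gene these were 2 of 6 (33.3%), against 8.09% of all genes. The higher cholesterol genes described below held it as often by gene, in 4 of 12 (33.3%), and in 4 of 15 promoters (26.7%). The E-box was thus not particular to the clock genes. The D-box TTATGTAA occurred in 0.938% of all promoters and, with 2 matches, in that of Per3. The ROR element core TAGGTCA, of the sites bound by ROR and REV-ERB receptors, occurred in 2.61% of all promoters and in 1 of the 2 promoters of Arntl. No match to these 3 motifs lay in the windows of Dbp and Usp2. A match is a run of letters on either strand and not a shown binding site.

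Clpx stood apart as the 1 named gene called against Normal in opposite directions, and it was chosen for mention after its values were seen. It encodes the ATPase subunit of a mitochondrial protease. The STAM-INS signals were 4.82, 4.90 and 4.76, those of Normal 3.83, 3.80 and 3.86 and those of STAM-NON 3.56, 3.47 and 3.29. It was thus higher by 1.0 in STAM-INS (SE 0.11, limma adjusted p 0.00266) and lower by 0.39 in STAM-NON (-0.39, limma adjusted p 0.0461), and the STAM groups differed by 1.39 (limma adjusted p 0.00328). Among the 1005 genes called in STAM-NON only, the 3 in which the STAM groups differed were Hacl1, Rnf208 and 2900092C05Rik, also named after their values were seen. Hacl1, a peroxisomal lyase of fatty acid α-oxidation, read 6.88, 6.91 and 7.14 in STAM-INS and 6.74, 6.68 and 6.75 in Normal (0.25, limma adjusted p 0.148), against 6.15, 6.19 and 6.06 in STAM-NON. Rnf208, a RING finger gene, stood out from background on 0 of 3 STAM-INS and 0 of 3 Normal arrays, and 2900092C05Rik on 1 of 3 STAM-INS and 0 of 3 Normal arrays, while both were detected on all 3 STAM-NON arrays.

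A looser description took genes called in STAM-INS but not in STAM-NON, with a difference there that was opposite or under 0.5 times as large, and with an unadjusted p under 0.05 between the STAM groups. It held 172 genes, 78 higher and 94 lower. Beside the clock genes the largest fitted rises were in Reg3b, Moxd1, Saa1, Pnpla5, Wnt10a, Kap and Cep55 and the remaining falls in Zfp979 and Pcsk4. A fitted size is not a measured one where a group was not above background. Over the alternatives the rise was as low as 0.23 for Kap, 0.59 for Wnt10a, 0.72 for Pnpla5 and 0.62 for Cep55. Kap lost the threshold with normexp background correction and without a filter on dim probes. Pnpla5 and Zfp979 lost the threshold without any one STAM-INS or Normal array, Zfp979 also without STAM-NON replicate 1, and Cep55 without STAM-INS replicate 2 or 3, any one Normal array or any one STAM-NON array. Saa1, the serum amyloid A acute phase protein, read 8.06, 10.16 and 9.32 in STAM-INS against 4.43, 4.90 and 4.50 in Normal (4.57, SE 0.60, limma adjusted p 0.00431). STAM-NON spread from 5.23 to 7.02 and overlapped neither group (1.80, limma adjusted p 0.0731). Between the STAM groups it differed by 2.77 with a limma adjusted p of 0.31. Saa2, a near-identical paralogue whose transcript the same probe may bind, differed by 4.52 (SE 0.57, limma adjusted p 0.00387) and passed in STAM-NON too, at 2.05. Reg3b, an antibacterial lectin, was at least 9.20-fold higher than in Normal (limma adjusted p 0.0224) and lost the threshold without STAM-INS replicate 1 or 2 or any one Normal array. Moxd1, a monooxygenase-like gene, was at least 11.8-fold higher (limma adjusted p 0.012). Of 25 acute phase genes in all 6 were higher and 0 lower (median 0.97), against 3 in STAM-NON, and the count was 3 to 4 without any one STAM-INS or Normal array. On the STAM-INS arrays the list median was 0.49, 1.38 and 0.77.

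Genes of cholesterol synthesis and uptake were higher in 15 of 32 tested members in STAM-INS, with 0 lower (median 0.79). In STAM-NON 8 were higher and 2 lower, and all 8 were among the 15. Mvd, the mevalonate diphosphate decarboxylase, read 2.28, 2.20 and 1.40 in STAM-INS against -0.61, -1.25 and -1.48 in Normal (3.07, SE 0.37, limma adjusted p 0.00338), with STAM-NON at 0.62, 0.53 and 1.63. Hmgcs1, which makes HMG-CoA for the pathway, read 6.66, 6.81 and 6.09 against 4.88, 4.68 and 4.99 (1.67, SE 0.25, limma adjusted p 0.007) and differed by 1.07 in STAM-NON. Sqle, squalene epoxidase, differed by 3.17 (limma adjusted p 0.0126) and by 2.40 in STAM-NON. No member differed between the STAM groups past the threshold, and 8 of 32 did at an unadjusted p under 0.05. The list median on the STAM-INS arrays was 1.01, 0.93 and 0.46, and those of STAM-NON, 0.39, 0.19 and 0.75, overlapped this range. Without STAM-INS replicate 2 the number past the threshold was 6, and without STAM-INS replicate 1 or any one Normal array it was 8 to 10. The sterol element core lay in 1 of the 15 RefSeq promoters of 12 of these genes, that of Hmgcs1, against 1.24% of all promoters.

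Lipogenic genes that insulin is known to induce were higher in 15 of 30 in STAM-INS, with 2 lower (median 0.82), against 7 higher and 2 lower in STAM-NON, all of them shared. Of the 30, 0 differed between the STAM groups past the threshold, and 8 did at an unadjusted p under 0.05. The list median was 0.55, 0.98 and 0.87 on the STAM-INS arrays and 0.14, 0.44 and 0.56 on the STAM-NON arrays, which overlapped. Elovl5, an elongase of polyunsaturated fatty acids, read 6.62, 7.03 and 6.84 in STAM-INS against 4.71, 5.05 and 4.82 in Normal (1.97, SE 0.21, limma adjusted p 0.00246), with STAM-NON at 6.53, 5.94 and 5.79. Acacb, the acetyl-CoA carboxylase at mitochondria, read 4.32, 5.13 and 4.73 against 2.60, 3.15 and 2.90 (1.84, SE 0.25, limma adjusted p 0.00456) and differed by 0.92 in STAM-NON. Fasn, the fatty acid synthase, read 2.73, 3.37 and 3.16 against 0.18, 1.13 and 0.56 (2.46, SE 0.51, limma adjusted p 0.0198), while STAM-NON at 0.66, 2.28 and 2.79 did not pass. For Fasn the threshold was lost without STAM-INS replicate 2 or 3 or Normal replicate 1 or 3. The number of lipogenic genes higher was 5 or 6 without STAM-INS replicate 2 or 3 or any one Normal array, and 7 with arrays centred on the median. Mlxipl, the glucose-responsive factor ChREBP, and Ppp1r3b, a glycogen-targeting phosphatase subunit, were the 2 lower genes, at -0.62 and -0.89, and Mlxipl lost the threshold without STAM-INS replicate 2 or 3 or any one Normal array. Of 24 genes that insulin is known to repress, 3 were higher and 4 lower (median -0.01), and of 28 genes of glucose output and glycogen 4 were lower (median -0.04). Both medians changed sign with the scaling. Between 1 and 4 of the repressed genes and 2 and 3 of the glucose genes were lower without any one STAM-INS or Normal array.

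**Figure D5:**
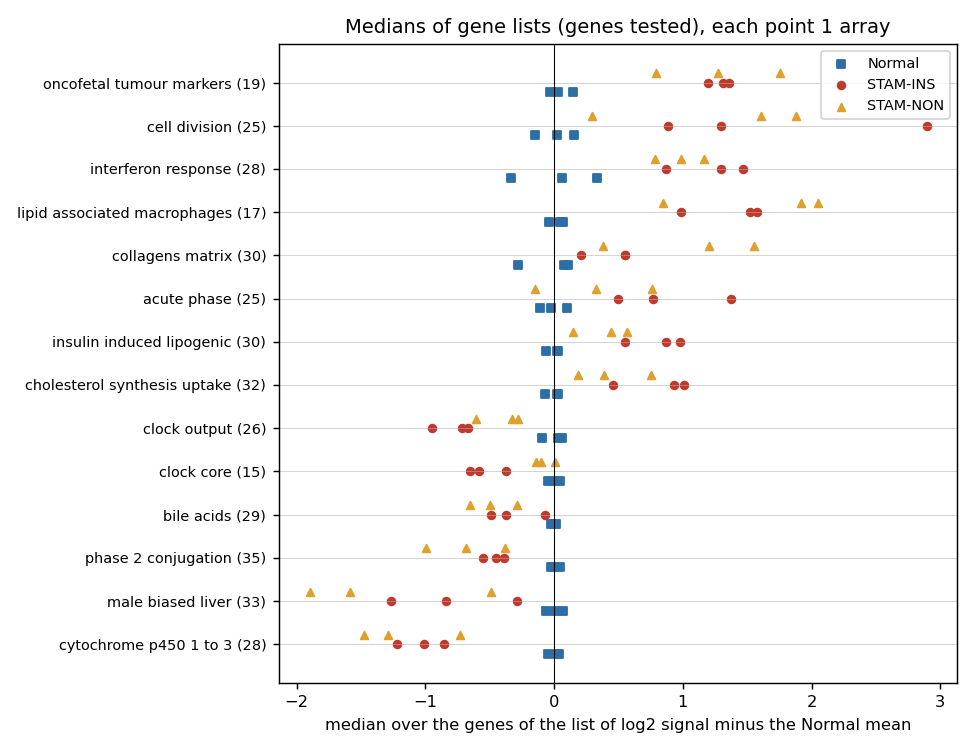
Median over the tested genes of a list (number in brackets) of the centred log2 signal minus the Normal mean, each point 1 array. STAM-INS (red) and STAM-NON (amber) intermingle for interferon and P450 genes, red lies below amber for clock genes, and the STAM-INS points for cholesterol genes lie at 1.01, 0.93 and 0.46.

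Some lists had fewer calls in STAM-INS than in STAM-NON, which by itself shows no difference between the groups. Of 30 tested collagen and matrix genes 2 were higher in STAM-INS (median 0.45), against 12 higher and 1 lower in STAM-NON. The 2 were Timp1, an inhibitor of matrix proteases, and Thbs1, thrombospondin 1. Their share was close to the 6.15% of all genes that were higher in STAM-INS. None of the 30 differed between the STAM groups past the threshold, and 8 of 30 did at an unadjusted p under 0.05. The list median was 0.55, 0.55 and 0.21 on the STAM-INS arrays and 1.55, 0.38 and 1.20 on the STAM-NON arrays, which overlapped. Without any one STAM-INS or Normal array 0 to 2 passed, 0 being without STAM-INS replicate 2. Timp1 was at least 4.36-fold higher in STAM-INS (limma adjusted p 0.0322) and lost the threshold without STAM-INS replicate 1 or 2 or Normal replicate 2 or 3, and Thbs1, at least 2.41-fold higher (limma adjusted p 0.0156), without STAM-INS replicate 2. Markers of lipid-associated macrophages were higher in 5 of 17 (median 1.34) against 11 in STAM-NON, with 0 to 4 past the threshold when 1 STAM-INS or Normal array was left out, 0 being without STAM-INS replicate 2. Trem2, their lipid-sensing receptor, differed by 2.61 (SE 0.48, limma adjusted p 0.0137) and by 2.93 in STAM-NON, and lost the threshold without STAM-INS replicate 2. Male-biased liver genes were lower in 4 of 33 and higher in 1, Moxd1 (median -0.80), against 11 lower in STAM-NON. Female-biased liver genes went both ways, with 4 of 29 higher and 4 lower (median 0.38), against 3 higher and 4 lower in STAM-NON. Cyp3a16, described above, is among the lower ones. Without any one STAM-INS or Normal array 1 to 3 female-biased genes were higher and 3 to 4 lower. Hsd3b5, a male-specific steroid dehydrogenase, read 1.85, -2.32 and 3.0 in STAM-INS, -6.80, 0.43 and -0.05 in STAM-NON and 6.24, 6.07 and 6.2 in Normal, and its difference of -5.33 did not pass (limma adjusted p 0.102). Bile acid genes were lower in 2 of 29 and higher in 1 against 8 lower in STAM-NON, and phase 2 conjugation genes lower in 2 of 35 against 8. For both lists the share lower in STAM-INS was under the 7.49% of all genes. Without any one STAM-INS or Normal array 1 to 3 male-biased, 0 to 1 bile acid and 0 to 2 conjugation genes were lower.

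A last list held 24 genes of collagen, inflammation, lipid and bile acid metabolism, insulin signalling and tumour growth. The study had covered them by other assays or had discussed them, in part for other mice, ages or tissues than those used here. These genes are therefore no independent evidence of a direction. Here 22 of them were tested and 5 passed in STAM-INS. Afp, Ccl2, Fasn and Cyp8b1 were higher and Igf1 was lower. Cyp8b1, the sterol hydroxylase that sets the share of cholic acid, read 3.43, 3.10 and 3.15 in STAM-INS against 1.32, 1.06 and 2.08 in Normal (1.74, SE 0.34, limma adjusted p 0.017), and lost the threshold without STAM-INS replicate 2 or Normal replicate 1 or 2. Igf1, the growth factor that liver secretes under growth hormone, differed by -0.47 (SE 0.12, limma adjusted p 0.0372) and lost it under 12 of 21 alternatives, each single STAM-INS or Normal array left out among them. Of its 4 tested probes 3 passed. Pkm, the muscle-type pyruvate kinase, read 1.71, 2.84 and 1.56 against 0.63, 0.45 and 0.54 and just missed the threshold (1.5, limma adjusted p 0.0502). Cyp7a1, the rate-limiting enzyme of bile acid synthesis, was at 2.99, 2.02 and 2.81 in STAM-INS and at 3.50, 3.17 and 1.68 in Normal, with a difference of -0.18 (limma adjusted p 0.817).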

How the data were processed

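Total RNA of 9 livers, 3 each of STAM-NON, STAM-INS and Normal, was hybridised by the authors' array service in a single colour to an Agilent mouse gene expression array, 1 array per mouse. The deposited files are the scanner output of Agilent Feature Extraction 11.5.1.1, and per the file headers the processed intensity of each spot had already been background-subtracted. No normalisation between arrays or test for these arrays is given in the sources used here. Groups and replicate numbers came from the sample titles. The members and gene lists used here were chosen with earlier results of these data known.

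From the 59305 non-control spots of each array, outlier-flagged spots were left out, log2 intensities were centred on the 75th percentile of each array, and spots of a probe were averaged to 55681 probes. Tests were limited to 26278 probes that, in 1 or more groups, had a share of 0.5 or more of their spots well above background on each of the 3 arrays. RefSeq accessions named 27656 probes with 20972 symbols, from RefSeq's GRCm38.p6 tables, and a gene was represented by its probe of highest mean. limma 3.58.1 in R 4.3.3 was fitted to all 9 arrays with 6 residual degrees of freedom, p-values were adjusted by Benjamini-Hochberg over all tested probes, and simulated arrays with known changes were used to check the code. Where a whole group was not well above background, a fold is a lower bound. It was computed by raising the dim group, array by array, to the lowest signal of any detected probe where the probe itself read less. Such a bound holds for the main processing only. Over the alternatives the difference was as low as 1.24 for Cdkn2a, 0.64 for Ccl7 and 0.37 for Oas3. The number of arrays limits the precision of all values.

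Genes were named as the 8 largest rises and falls with groups that do not overlap, the 8 largest each way in both STAM groups, all genes called only with insulin that also differed from STAM-NON, up to 8 each way of the looser kind, up to 4 called genes per list, and the genes covered by other assays. Named after their values were seen were Clpx, Hacl1, Rnf208 and 2900092C05Rik, and, as list members or markers, Acacb, Akr1c18, Clock, Cps1, Cry2, Cyp2c37, Hsd3b5, Mlxipl, Nfil3, Nr1d1, Per1, Per2 and Por. Alternatives changed the centring (median, detected probes, 245 E1A spike-in spots, quantile), the background correction (normexp, offset 50), outlier spots, the filter, the arrays fitted, moderation, slide row, replicate number as a block, the call rule, and left out each array. Figures were drawn with matplotlib 3.10.9 in Python 3.11.15.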

Additional observations from a re-analysis of the deposited data

Results flagged for a closer look

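For 8 of the genes called against Normal in STAM-INS the difference from Normal itself differed between STAM-INS and STAM-NON, which equals the difference between these groups on their shared slide (limma adjusted p under 0.05). It was 2.69 for Arntl and 1.39 for Clpx, which were higher in STAM-INS. It was -2.82 for Dbp, -1.37 for Tef, -2.88 for Usp2 and -2.19 for Wee1, which were lower there. The fitted values of -3.99 for Ciart and -3.22 for Per3 are not measured sizes, since 0 and 1 of 3 STAM-INS arrays had these probes well above background. All 3 STAM-INS arrays lay outside the range of the STAM-NON arrays in each case, a description of genes already picked by this test.

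Among control spots that enter no comparison, 18.1% of the ERCC spots were well above background on STAM-INS replicate 1, against at most 6.6% on a Normal array. STAM-NON replicate 3 was close to it, at 15.5%, and STAM-NON replicate 1 was at 8.91%. Groups of 3 arrays were too small for a test of single outlying values.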

How the results depend on the processing

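The count of probes called against Normal (3647), the count called in both STAM groups (2399) and the count called only with insulin that also differed from STAM-NON (10) moved as follows. With spike-in centring they were 2206, 1425 and 13. Without a filter on dim probes they were 572, 160 and 3, with 2-fold added to the rule 1502, 877 and 10, and among probes detected on all 9 arrays the last was 4. With slide row as a block they were 2157, 11 and 3, where the first equals leaving out STAM-INS replicate 1 by construction. With the replicate block they were 1872, 1098 and 2. Same-numbered arrays had deviations that correlated at -0.288 to 0.149, and differently numbered arrays at -0.193 to 0.283. With 3 arrays per group this cannot show whether the numbers pair the mice. Leaving out 1 array gave ranges of 1172 to 4495, 566 to 3176 and 4 to 30. The lowest came without STAM-INS replicate 2, Normal replicate 3 and STAM-NON replicate 2, and the highest without STAM-NON replicate 2, 2 and 3. The fit of 6 arrays alone called 5194 and could give neither of the other counts, having no STAM-NON arrays. Apart from what the row layout fixes, the cause of these shifts was not tested.

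Of 155 named genes that passed, 54 passed in the same direction under every alternative run, and 0 reversed. Reversals were limited to uncalled genes. Cyp7a1 (-0.18) ranged from -0.73 to 0.18 with 1 array left out. Hif1a (-0.03) was 0.10 with the detected percentile, 0.13 with spike-ins, 0.0051 with quantile normalisation and 0.012 with slide row, and ranged from -0.081 to 0.012 with 1 array left out. Igf1r was -0.047 with median centring. 2900092C05Rik (0.48) was -0.014 with normexp and -0.017 with slide row, and ranged from -0.017 to 0.73. Rnf208 (-0.09) was 0.031 with the detected percentile and 0.071 with spike-ins, and ranged from -0.42 to 0.081. Of the 3647 probes, 766 were called under all 5 scaling or background settings and all 9 omissions, and 682 of these also in STAM-NON. For signals near background a fold is not measured, and the bounds given hold for the main processing only.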
